A study of Homo sapiens with 16 samples.

Results

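Amino acid transporters are the membrane proteins through which a cell takes up, releases and exchanges amino acids. The 10 genes described here were chosen by name from the solute carrier families that serve this role at the plasma membrane. Earlier results of these data were known when they were chosen. They are SLC3A2, SLC7A5, SLC7A6, SLC7A1, SLC43A1, SLC38A2, SLC38A1, SLC38A5, SLC1A5 and SLC1A4. Each matched 1 of the 60662 gene identifiers in the count tables, and all 10 were among the 14092 genes tested. RNA-seq measured their transcripts in Jurkat E6-1 cells, an established line of human T lymphoma cells.

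The peroxide group comprised 8 libraries from WT cells suspended in phosphate-buffered saline (PBS), given 10 µM hydrogen peroxide and collected at 4 h. The control group comprised 8 libraries from untreated WT cells at 0 h, taken from culture. Both groups are the same single cell line, grown in RPMI with fetal bovine serum, sodium bicarbonate, penicillin G and streptomycin sulfate. PBS contains no amino acids. A group kept in PBS for 4 h without peroxide was not analysed here, so time, medium and peroxide cannot be told apart in any difference below. The names of the deposited tables place 4 libraries of each group in batch 1 and 4 in batch 2, and the sources used here do not say what distinguishes the batches. The labels call the libraries biological replicates without naming separate cultures, so the p-values measure the spread between these libraries.

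Heteromeric transporters consist of a heavy chain and a light chain. SLC3A2, also called CD98 or 4F2hc, is the heavy chain that carries its partners to the cell surface, and SLC7A5 (LAT1) and SLC7A6 (y+LAT2) are light chains that form the transport path. LAT1 takes up large neutral amino acids such as leucine in exchange for internal ones, many of which, glutamine among them, enter through SLC1A5 (ASCT2) or the sodium-coupled SLC38 carriers. Activated T cells raise this uptake. When amino acids are short, the kinase GCN2 (gene EIF2AK4) favours translation of the transcription factor ATF4, which binds composite C/EBP-ATF sites in genes for amino acid transport and synthesis. MYC is a second known regulator of SLC7A5 and SLC1A5, and binds E-boxes.

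RefSeq promoter windows (build GRCh38.p14), from 250 bases before to 50 bases after an annotated start, were found for all 10 genes, 17 windows in all because some genes have several starts. They were searched on both strands for TGATGNAA, the core of a C/EBP-ATF site, and for the E-box CACGTG. TGATGNAA was in 5 windows, of SLC3A2, SLC7A1, SLC38A1, SLC1A4 and SLC1A5, and in 3.62% of all 35116 windows. CACGTG was in 4 windows, of SLC7A5, SLC38A5, SLC1A5 and SLC43A1, and in 7.26% of all windows. No window held both, so no matches overlapped. A match is a description of the letters only, and a window without one says nothing about sites elsewhere in the gene. The 4 windows below are shown because they belong to transporters with unlike responses: SLC38A2 and SLC3A2, which rose most, SLC1A4, whose response depended on the batch, and SLC7A1, which fell. They lie at chr12:46372724-46373023 (minus strand), chr11:62881449-62881748 (plus strand), chr2:64989149-64989448 (plus strand) and chr13:29595639-29595938 (minus strand), in that order. Each is written 5′ to 3′ in the direction of transcription, with any TGATGNAA match, read on either strand, in capitals.
SLC38A2: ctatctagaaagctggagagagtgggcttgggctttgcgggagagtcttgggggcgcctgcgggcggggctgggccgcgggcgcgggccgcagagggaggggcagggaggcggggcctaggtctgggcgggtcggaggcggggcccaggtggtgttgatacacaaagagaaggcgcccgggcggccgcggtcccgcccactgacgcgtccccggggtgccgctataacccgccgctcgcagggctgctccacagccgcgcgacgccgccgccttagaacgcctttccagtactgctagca
SLC3A2: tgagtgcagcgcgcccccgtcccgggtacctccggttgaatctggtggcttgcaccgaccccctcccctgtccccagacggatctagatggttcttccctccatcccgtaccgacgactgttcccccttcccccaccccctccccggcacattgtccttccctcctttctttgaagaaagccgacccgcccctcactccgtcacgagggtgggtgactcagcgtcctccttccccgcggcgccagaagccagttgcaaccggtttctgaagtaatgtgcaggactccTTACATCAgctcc
SLC1A4: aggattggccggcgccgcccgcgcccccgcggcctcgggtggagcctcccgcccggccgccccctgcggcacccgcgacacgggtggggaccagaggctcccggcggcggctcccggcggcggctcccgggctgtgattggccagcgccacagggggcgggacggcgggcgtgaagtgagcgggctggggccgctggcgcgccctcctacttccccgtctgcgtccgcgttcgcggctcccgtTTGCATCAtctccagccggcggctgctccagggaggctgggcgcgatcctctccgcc
SLC7A1: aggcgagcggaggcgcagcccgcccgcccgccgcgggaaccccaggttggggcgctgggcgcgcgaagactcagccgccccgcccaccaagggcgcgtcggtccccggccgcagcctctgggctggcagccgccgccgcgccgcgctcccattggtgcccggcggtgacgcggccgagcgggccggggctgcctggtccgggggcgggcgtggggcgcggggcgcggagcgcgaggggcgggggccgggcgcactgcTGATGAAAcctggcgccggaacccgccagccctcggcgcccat
The SLC38A2 window held no match to either motif, and neither did the SLC7A6 window. SLC3A2 and SLC1A4 had further windows without a match to either motif, and only their window with a match is shown. In SLC3A2 the match was TTACATCA, read on the opposite strand and beginning 37 bases after the start. In SLC1A4 it was TTGCATCA, also on the opposite strand and beginning 7 bases before the start. In SLC7A1 it was TGATGAAA, beginning 7 bases after the start. Matches were thus present in windows of genes that rose, fell and were not called.

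Reads in genes numbered 5556553 to 15720881 per library. Reads not aligned uniquely made up 33.3% to 39.8% of counted reads in peroxide libraries against 30.2% to 47.2% in control libraries of batch 1, and 35.7% to 45.8% against 31.8% to 33.7% in batch 2. All 12 T cell marker genes examined were tested. Of these 0 rose and 4 fell (CD3G, CD2, CD28 and LAT), beside 24.1% higher and 24.3% lower over all tested genes. The summed level of the 12 was 2925 to 3874 CPM (counts scaled to a common library size) in peroxide libraries and 2946 to 3874 CPM in controls. Of 6 myeloid markers only 2 were tested, CD14 and ITGAM, and each rose. The summed level of the 6 was 4.46 to 15.6 CPM in peroxide libraries and 0.50 to 1.16 CPM in controls. FCGR3A had 0 reads in peroxide libraries and 1 in controls. Of 6 B cell markers only CD79A was tested and was not called, with a summed level of 31.5 to 55.8 CPM in peroxide libraries and 29.9 to 50.5 CPM in controls. Erythroid markers summed to at most 0.87 CPM, and fibroblast markers to 2.89 to 6.87 CPM in peroxide libraries against 3.50 to 5.19 CPM in controls. The part of the non-unique reads and of these markers in the transporter differences was not tested. Leaving out peroxide 5 and control 1, the library of each group with most non-unique reads, gave the same 4 rises and 3 falls as below. In batch 2 the peroxide libraries kept, at 35.7% or more, still lay above the controls, at 33.7% or less. That difference stayed in place, so leaving out these libraries cannot decide its part.

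In peroxide-treated cells 4 transporters rose: SLC38A2 about 2.93-fold, SLC3A2 1.88-fold, SLC1A5 1.63-fold and SLC7A5 1.35-fold. The light chain SLC7A6 fell to 0.741 of the control level, and SLC43A1 and SLC7A1 fell to 0.804 and 0.840. SLC38A1, SLC38A5 and SLC1A4 were not called. A gene was called at a Benjamini-Hochberg adjusted p under 0.05 in edgeR's quasi-likelihood test with batch as a term, adjusted over all 14092 genes. By that rule 48.3% of all tested genes were called, 24.1% higher and 24.3% lower, so neither the number of transporters that rose nor the number that fell sets these genes apart. The median log2 fold change was −0.08 over the 10 transporters and −0.01 over all tested genes. Levels below are CPM scaled with TMM factors. The share of all tested genes whose groups lay fully apart within a batch was not counted, so such separation does not set these genes apart. In bulk libraries, fewer cells holding a transcript and less of it per cell cannot be told apart.

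The heavy chain SLC3A2 (ENSG00000168003.16) had 544 CPM in the lowest, 807 in the median and 976 in the highest peroxide library, against 254, 406 and 685 CPM in controls. All 4 peroxide libraries lay above all 4 controls within each batch, and 6 of 8 lay above every control of either batch, because controls of batch 2 were themselves high. On the log2 scale the fold change was 0.91 ± 0.12 (SE, n = 8 each, adjusted p = 1.4e-06). It was 1.32 ± 0.11 in batch 1 alone (adjusted p = 2.6e-07) and 0.50 ± 0.08 in batch 2 alone (adjusted p = 0.0003).

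SLC7A5 (ENSG00000103257.9), the LAT1 light chain and the most abundant of the 10 per length of transcript, had 904 to 1185 CPM in peroxide libraries with a median of 1035, against 587 to 1029.7 CPM with a median of 791 in controls. The batches differed here. In batch 1 the peroxide libraries, at 904 to 1185 CPM, all lay above the controls, at 587 to 639 CPM. In batch 2 the 969 to 1178 CPM of peroxide libraries overlapped the 943 to 1029.7 CPM of controls. Over both batches the log2 fold change was 0.44 ± 0.09 (n = 8 each, adjusted p = 0.00049), with 0.74 ± 0.09 in batch 1 (adjusted p = 2.2e-05) and 0.13 ± 0.08 in batch 2 (adjusted p = 0.203).

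SLC7A6 (ENSG00000103064.15), the light chain known for exporting cationic amino acids in exchange for neutral ones, moved the other way. Its level was 32.7 to 48.7 CPM in peroxide libraries (median 39.5) and 43.7 to 72.1 CPM in controls (median 50.9). Every peroxide library lay below every control of its batch, and 7 of 8 lay below all controls. Its log2 fold change was −0.43 ± 0.07 (n = 8 each, adjusted p = 1.3e-05), at −0.46 ± 0.11 in batch 1 and −0.40 ± 0.08 in batch 2. Exons of SLC7A6 overlap those of SLC7A6OS on the other strand over 44.4% of their length in GENCODE release 29, and SLC7A6OS also fell (log2 fold change −0.39 ± 0.09, adjusted p = 0.00093). The sources used here do not say whether counting used strand. How reads over the shared length were counted is therefore not known, which leaves the SLC7A6 level less certain.

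SLC7A1 (ENSG00000139514.13), or CAT1, imports arginine and lysine without a heavy chain. It had 261 to 475 CPM in peroxide libraries (median 363) and 312 to 588 CPM in controls (median 435). The groups overlapped in batch 1 and were apart in batch 2, where all peroxide libraries were lower. Its log2 fold change was −0.25 ± 0.06 (adjusted p = 0.0023), with −0.15 ± 0.09 in batch 1 (adjusted p = 0.203) and −0.35 ± 0.08 in batch 2 (adjusted p = 0.0024). Without the batch term it was −0.27 (adjusted p = 0.234).

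SLC43A1 (ENSG00000149150.9), or LAT3, carries branched-chain amino acids and phenylalanine down their gradient. Its level was 15.1 to 79.2 CPM in peroxide libraries (median 35.1) and 17.3 to 104 CPM in controls (median 50.8). The width of both ranges came from the batches: every library of batch 1 was at or below 25.2 CPM and every library of batch 2 at or above 47.4 CPM. The log2 fold change of −0.31 ± 0.11 passed the test narrowly (adjusted p = 0.027), with −0.12 ± 0.15 in batch 1 (adjusted p = 0.569) and −0.45 ± 0.13 in batch 2 (adjusted p = 0.0159). The call was lost on leaving out any 1 of 5 libraries (peroxide 4 or 5, or control 3, 6 or 7; adjusted p 0.0507 to 0.0621) and without the batch term (adjusted p = 0.56).

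**Figure D1:**
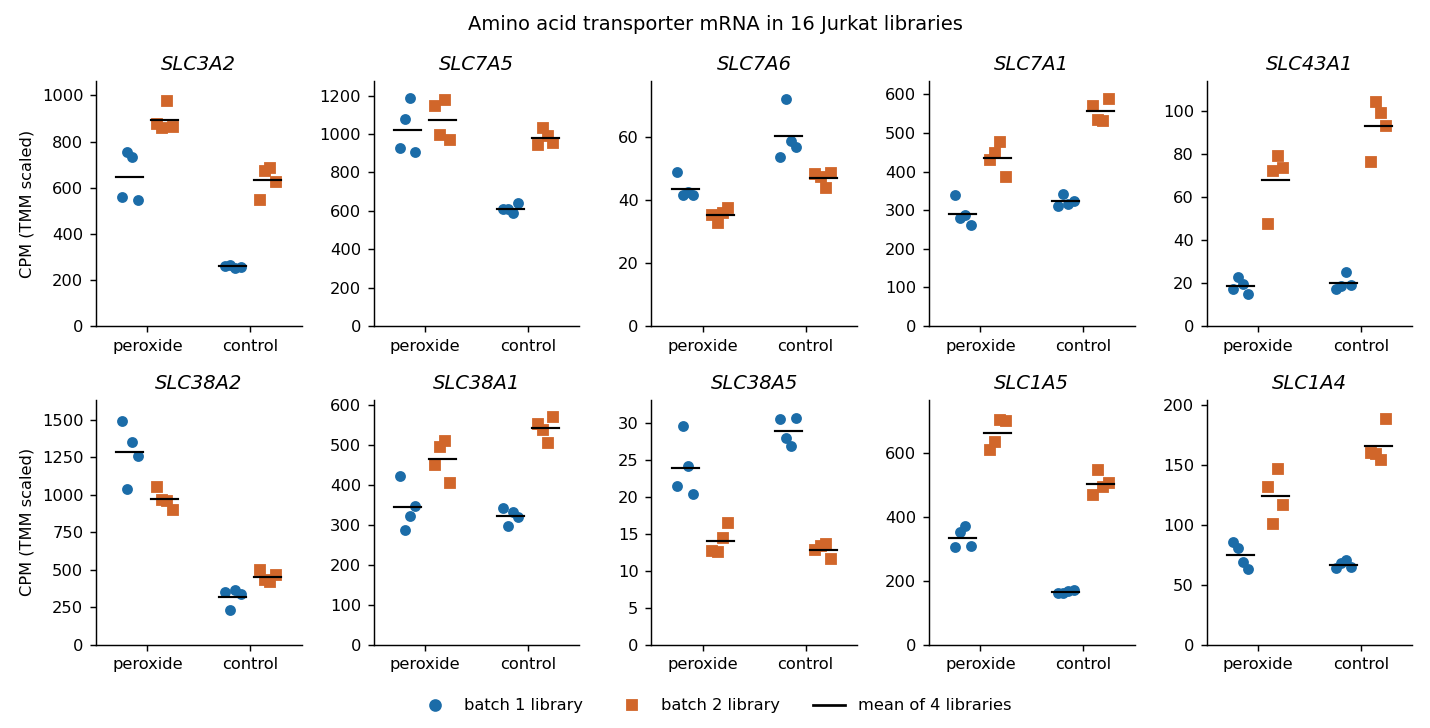
Level of the 10 transporters in every library, in CPM with TMM scaling from 0 on a linear axis, 1 panel a gene, with peroxide left and control right. Circles are batch 1, squares batch 2 and bars the mean of 4 libraries; SLC38A2 is the one gene with all 8 peroxide libraries above all 8 controls, while SLC43A1 separates by batch.

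SLC38A2 (ENSG00000134294.14), or SNAT2, is the sodium-coupled system A carrier for small neutral amino acids and is known to be induced when amino acids are withdrawn. It had 897 CPM in the lowest, 1046 in the median and 1495 in the highest peroxide library, against 227, 392 and 495 CPM in controls. The lowest peroxide library lay well above the highest control; 6.76% of all tested genes lay likewise above in all 8 peroxide libraries, and 4.49% lay below in all 8, as 0 of the 10 transporters did. The log2 fold change was 1.55 ± 0.13 (SE, n = 8 each, adjusted p = 5.2e-09), with 2.00 ± 0.14 in batch 1 (adjusted p = 6.2e-08) and 1.10 ± 0.08 in batch 2 (adjusted p = 2.2e-07).

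The other SLC38 carriers among the 10 were not called. SLC38A1 (SNAT1, ENSG00000111371.16), a system A carrier as well, had 286 to 509.6 CPM in peroxide libraries (median 414) and 298 to 571 CPM in controls (median 424), and the groups overlapped in each batch. Its log2 fold change was −0.06 ± 0.08 (adjusted p = 0.524), with 0.09 ± 0.11 in batch 1 (adjusted p = 0.542) and −0.22 ± 0.08 in batch 2, where it fell (adjusted p = 0.0462). SLC38A5 (SNAT5, ENSG00000017483.15), a system N carrier of glutamine, histidine, serine and glycine, had 12.6 to 29.6 CPM in peroxide libraries (median 18.4) and 11.7 to 30.7 CPM in controls (median 20.3). It too overlapped in both batches, with a log2 fold change of −0.10 ± 0.10 (adjusted p = 0.436), −0.29 ± 0.13 in batch 1 (adjusted p = 0.0899) and 0.12 ± 0.12 in batch 2 (adjusted p = 0.463).

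SLC1A5 (ENSG00000105281.12), or ASCT2, exchanges glutamine and other neutral amino acids. It had 306 to 703 CPM in peroxide libraries (median 490) and 161 to 546 CPM in controls (median 319). Pooled over batches the groups overlapped, with 4 of 8 peroxide libraries above every control, yet within each batch all peroxide libraries were above all controls. In batch 1 these were 306 to 371 CPM against 161 to 169 CPM, and in batch 2 609 to 703 CPM against 469 to 546 CPM. The log2 fold change was 0.70 ± 0.09 (n = 8 each, adjusted p = 1.3e-06), 1.02 ± 0.08 in batch 1 (adjusted p = 2.6e-07) and 0.39 ± 0.07 in batch 2 (adjusted p = 0.00099). Without the batch term it was 0.58 and not called (adjusted p = 0.162). An antisense gene, AC008622.2, overlaps 23.4% of the SLC1A5 exons and had 14 reads in all peroxide libraries and 11 in all controls.

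SLC1A4 (ENSG00000115902.11), or ASCT1, exchanges alanine, serine and cysteine. Its level was 63.0 to 147 CPM in peroxide libraries (median 93.1) and 64.3 to 189 CPM in controls (median 113). In batch 1 the groups overlapped, at 63.0 to 85.5 CPM and 64.3 to 70.9 CPM. In batch 2 all peroxide libraries, at 101 to 147 CPM, were below the controls, at 154 to 189 CPM. Over both batches the log2 fold change of −0.14 ± 0.10 was not called (adjusted p = 0.245); it was 0.16 ± 0.10 in batch 1 (adjusted p = 0.263) and −0.42 ± 0.10 in batch 2 (adjusted p = 0.0063).

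The response of 5 transporters was larger on the log2 scale, or more positive, in batch 1 than in batch 2. The interaction of batch and group was called for SLC38A2, SLC3A2, SLC1A5, SLC7A5 and SLC1A4, always with the higher value in batch 1, and for none in the other direction. Of all tested genes, 4.88% had a called interaction, 3.02% with the higher value in batch 1 and 1.87% with the lower. The differences of log2 fold changes, batch 1 minus batch 2, were 0.90 ± 0.17 for SLC38A2 (adjusted p = 0.0061), 0.83 ± 0.14 for SLC3A2 (adjusted p = 0.0021), 0.63 ± 0.11 for SLC1A5 (adjusted p = 0.0025), 0.61 ± 0.12 for SLC7A5 (adjusted p = 0.0079) and 0.58 ± 0.15 for SLC1A4 (adjusted p = 0.0345). The SLC1A4 call is the least certain, being lost on leaving out any 1 of 10 libraries, peroxide 1, 5, 6 or 8 or control 1, 2, 4, 5, 6 or 8 (adjusted p 0.0523 to 0.0872), and without both peroxide 5 and control 1 (adjusted p = 0.101). In fold terms, the mean level after peroxide over control was 4.01 in batch 1 and 2.14 in batch 2 for SLC38A2, 2.51 and 1.41 for SLC3A2, 2.04 and 1.31 for SLC1A5, and 1.68 and 1.10 for SLC7A5. The median interaction was 0.45 over the 10 transporters and 0.01 over all tested genes. Within batch 1 alone, 4 transporters rose and 1 fell, where 37.6% of all tested genes were called, 20.4% higher and 17.2% lower. Within batch 2 alone, 3 rose and 5 fell, where 38.4% of genes were called, 19.4% higher and 19.1% lower.

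**Figure D2:**
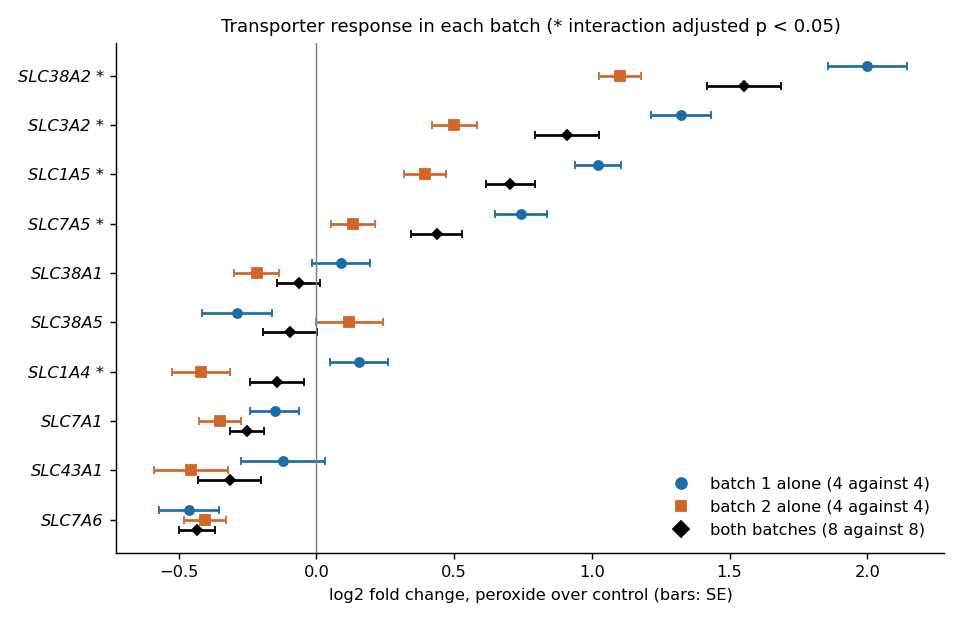
Log2 fold change, peroxide over control, of each transporter in batch 1 alone (circles), batch 2 alone (squares) and both batches (diamonds), with bars for the SE. An asterisk marks a called interaction; SLC38A2 stands at 2.00 in batch 1 and 1.10 in batch 2, and SLC7A6 at nearly the same value in both.

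The untreated controls already differed by batch at every one of these genes. In controls, 8 transporters had all 4 libraries of batch 1 below all 4 of batch 2, and the other 2, SLC7A6 and SLC38A5, had all above. Of all tested genes, 21.2% lay below and 20.4% above in this way. The mean control level in batch 1 was 0.215 of that in batch 2 for SLC43A1, 0.327 for SLC1A5, 0.403 for SLC1A4 and 0.408 for SLC3A2, and between 0.581 and 0.710 for SLC7A1, SLC38A1, SLC7A5 and SLC38A2. It was 1.29 for SLC7A6 and 2.25 for SLC38A5.

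The ratio of the batch means was nearer to 1 in peroxide libraries than in controls for all 10 transporters, and for SLC38A2 it lay on the other side of 1. The test of these shifts is the interaction above, called for 5 of them. The share of all tested genes with a ratio nearer to 1 in peroxide libraries was not counted, so this does not set the transporters apart. Over all tested genes, full separation of the batches was also less common in peroxide libraries (14.7% below, 16.1% above) than in controls (21.2% below, 20.4% above). Batch 1 over batch 2 among peroxide libraries was 0.955 for SLC7A5, against 0.624 among controls, and 0.724 for SLC3A2, against 0.408 among controls. For SLC38A2 it was 1.33 among peroxide libraries and 0.710 among controls. In peroxide libraries 5 transporters (SLC1A5, SLC1A4, SLC7A1, SLC43A1 and SLC3A2) still had all of batch 1 below all of batch 2, and SLC7A6 and SLC38A5 all above, against 14.7% and 16.1% of tested genes. Together the 10 genes took 0.381% of reads in genes in peroxide libraries and 0.212% in controls of batch 1, and 0.483% and 0.423% in batch 2. The batch 1 ranges were 0.352% to 0.410% in peroxide libraries and 0.200% to 0.217% in controls; the batch 2 ranges were 0.460% to 0.518% and 0.405% to 0.436%.

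Levels of different genes can be set side by side only per length, here CPM per kilobase of the union of annotated exons in GENCODE release 29. The order depended on the batch and is given within each (SD, n = 4). In peroxide libraries of batch 1, SLC7A5 stood at 216 ± 27.9 and overlapped SLC38A2 at 195 ± 28.9, and both lay above SLC3A2 at 125 ± 21.6 and SLC1A5 at 100.5 ± 9.68. In peroxide libraries of batch 2, SLC38A2 was the fourth, at 147 ± 9.70, and all its libraries lay below SLC7A5 at 226 ± 22.2, SLC1A5 at 198 ± 14.3 and SLC3A2 at 173 ± 10.6. In controls of batch 1, SLC7A5 at 129 ± 4.47 lay far above SLC3A2 at 49.9 ± 1.04, SLC1A5 at 49.4 ± 1.19 and SLC38A2 at 48.6 ± 9.61, which overlapped one another. In controls of batch 2, SLC7A5 at 206 ± 8.27, SLC1A5 at 151 ± 9.77 and SLC3A2 at 122 ± 11.9 were apart, and SLC38A2 at 68.4 ± 5.21 overlapped SLC7A1 at 72.2 ± 3.69. SLC7A5 thus led, by its mean, in both groups of both batches. SLC38A2 was the second in batch 1 and the fourth in batch 2 after peroxide, and the fourth and the fifth in the controls of these batches.

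At the low end, SLC38A1 lay above SLC1A4, SLC43A1, SLC7A6 and SLC38A5 in every group and batch. By its mean SLC43A1 was the lowest of all in batch 1, at 5.28 ± 0.93 in peroxide libraries and 5.69 ± 0.99 in controls. Its libraries there overlapped those of SLC7A6 and SLC38A5 in each group. In batch 2 SLC43A1 stood at 19.3 ± 4.01 in peroxide libraries and 26.4 ± 3.42 in controls and overlapped SLC1A4, at 17.9 ± 2.87 and 23.9 ± 2.24. SLC38A5 was then the lowest, at 3.50 ± 0.46 in peroxide libraries and 3.21 ± 0.21 in controls.

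Ratios of read counts between related transporters within a library do not depend on how libraries are scaled. Over 5 pairs chosen with the levels known, each ratio differed between the groups by an exact permutation test (two-sided, adjusted over the 5). Because of that choice, and because the libraries are the same, these p-values describe the separation and add no support to the single-gene tests. These pairs share genes, SLC7A5 being in 3 of them, so they are not independent of one another. A ratio shows that 2 genes changed unequally and not which of them changed.

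SLC38A2 had 1.88 to 4.20 reads per SLC38A1 read in peroxide libraries and 0.764 to 1.10 in controls, with geometric means of 2.79 and 0.902. The groups did not overlap. The log2 difference was 1.63 (exact permutation p = 0.000155, the smallest possible with 8 against 8, adjusted p = 0.000259), at 1.94 in batch 1 and 1.32 in batch 2. SLC1A4 had 0.159 to 0.280 reads per SLC1A5 read in peroxide libraries and 0.292 to 0.427 in controls, again without overlap. That log2 difference, −0.85 (exact permutation p = 0.000155, adjusted 0.000259), was nearly the same in the batches, at −0.87 in batch 1 and −0.82 in batch 2, although the fold change of each gene was not.

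The light chain SLC7A5 had 1.12 to 1.66 reads per read of its heavy chain SLC3A2 in peroxide libraries and 1.44 to 2.52 in controls. These ranges overlapped between batches but not within either. The log2 difference was −0.47 (exact permutation p = 0.0084, adjusted p = 0.0084), with −0.57 in batch 1 and −0.38 in batch 2. SLC7A6 had 0.0305 to 0.0526 reads per SLC7A5 read in peroxide libraries and 0.0443 to 0.118 in controls, a log2 difference of −0.86 (exact permutation p = 0.0022, adjusted p = 0.0027), with −1.20 in batch 1 and −0.53 in batch 2. SLC7A1 had 0.242 to 0.452 reads per SLC7A5 read in peroxide libraries and 0.506 to 0.617 in controls, with no overlap and a log2 difference of −0.69 (exact permutation p = 0.000155, adjusted p = 0.000259), with −0.89 in batch 1 and −0.48 in batch 2. Within each batch all 5 ratios separated the groups fully (exact permutation p = 0.0286, the smallest possible with 4 against 4).

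**Figure D3:**
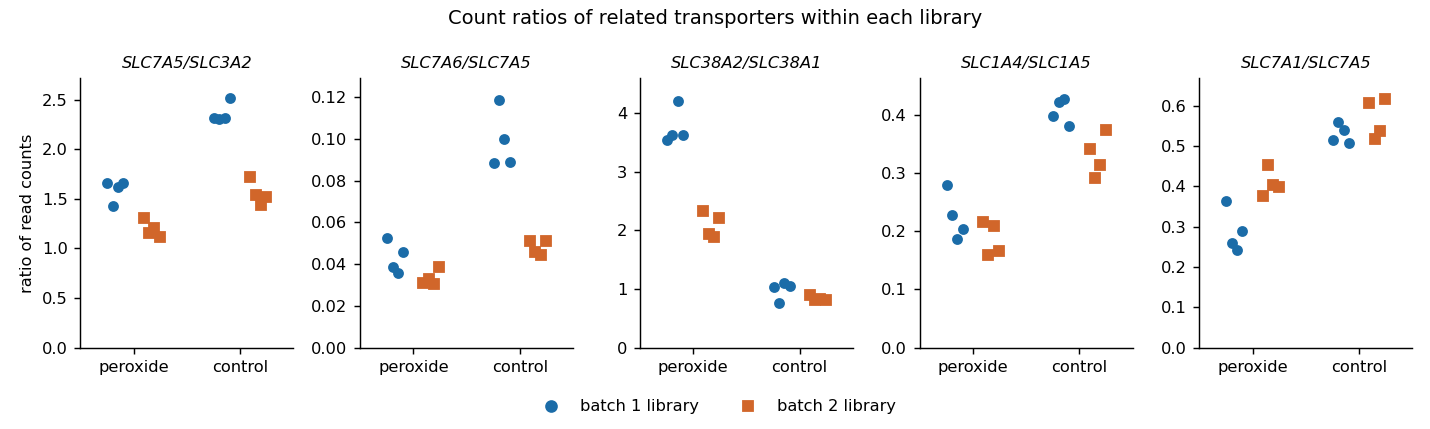
Ratio of read counts of related transporters within each library, on linear axes from 0, with peroxide left and control right; circles are batch 1 and squares batch 2. SLC38A2 over SLC38A1 is 1.88 to 4.20 in peroxide libraries and 0.764 to 1.10 in controls, and within each batch every ratio separates the groups.

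Other amino acid transporters and the regulators of their transcription were read in the same edgeR fit. Of 30 further plasma membrane transporters 7 were tested, and the 23 left untested averaged at most 0.92 CPM. Of the 7, 5 rose and 0 fell, beside 24.1% higher and 24.3% lower over all tested genes, with a median log2 fold change of 0.44. Among them SLC7A11, the light chain of the cystine-glutamate exchanger that also pairs with SLC3A2, rose by a log2 fold change of 2.12 ± 0.41 (adjusted p = 0.00018), at 3.85 in batch 1 and 0.65 in batch 2. Its mean level in batches 1 and 2 was 289 and 280 CPM in peroxide libraries, and 19.6 and 178 CPM in controls. The proline carrier SLC6A20 (1.54 ± 0.20), the aromatic amino acid carrier SLC16A10 (0.65 ± 0.10) and the taurine carrier SLC6A6 (0.44 ± 0.09) also rose, though the call of SLC6A6 was lost without the batch term (0.42, adjusted p = 0.198).

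Of 13 lysosomal and other organelle transporters 11 were tested, of which 2 rose and 5 fell (median log2 fold change −0.18). Of all tested genes 24.1% were higher and 24.3% lower, and the rises were near that share. SLC38A10, a relative of SLC38A2 found on internal membranes, fell by 0.48 ± 0.06 on the log2 scale, and the lysosomal carriers SLC36A1 and SLC15A4 fell by 0.36 ± 0.07 and 0.34 ± 0.07; in batch 2 alone SLC36A1 was not called (−0.22, adjusted p = 0.0845, against −0.50 in batch 1). SLC17A9, a vesicular carrier whose known substrate is ATP rather than an amino acid, rose by 1.46 ± 0.20. Of 12 mitochondrial carriers 10 were tested, of which 0 rose and 7 fell (median −0.27), where 24.3% of all tested genes fell. They included the serine carriers SFXN1 (−0.33 ± 0.07) and SFXN2 (−0.41 ± 0.08) and the carriers of ornithine and basic amino acids SLC25A15 (−0.31 ± 0.06) and SLC25A29 (−0.42 ± 0.09). In batch 2 alone SFXN1 (−0.14, adjusted p = 0.162, against −0.52 in batch 1) and SLC25A15 (−0.17, adjusted p = 0.0586, against −0.46 in batch 1) were not called. Whether these lists differ from the 10 transporters was not tested.

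All 10 regulators were called, 7 higher and 3 lower, with a median log2 fold change of 1.04. Of all tested genes 48.3% were called, 24.1% higher and 24.3% lower. ATF4, with 959 to 1438 CPM in peroxide libraries and 461 to 535 CPM in controls, rose by a log2 fold change of 1.17 ± 0.07 (adjusted p = 1.4e-11), and its groups did not overlap. The stress-induced factors DDIT3, also called CHOP (3.95 ± 0.32), ATF3 (3.22 ± 0.32) and ATF5 (1.38 ± 0.16) rose too. MYC fell by 0.68 ± 0.10 on the log2 scale (adjusted p = 1.1e-05), with 111 to 192 CPM in peroxide libraries and 167 to 378 CPM in controls. EIF2AK4, the gene of GCN2, was also lower, with a log2 fold change of −0.30 ± 0.06 (adjusted p = 0.00012 by edgeR). The log2 fold change of DDIT3, ATF3 and ATF5 was higher in batch 1 than in batch 2, as that of SLC38A2 and SLC3A2 was. Their mean control levels in batches 1 and 2 were 6.97 and 34.0 CPM for DDIT3, 15.9 and 62.4 for ATF3, and 31.2 and 124 for ATF5. In peroxide libraries these means were 309 and 244 CPM for DDIT3, 406 and 250 for ATF3, and 115 and 240 for ATF5. The interaction of ATF4, 0.32 ± 0.12, was not called (adjusted p = 0.106). The ATF5 interaction was lost on leaving out any 1 of 7 libraries, peroxide 4 or 5 or control 2, 3, 4, 6 or 7 (adjusted p 0.0514 to 0.0682).

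**Figure D4:**
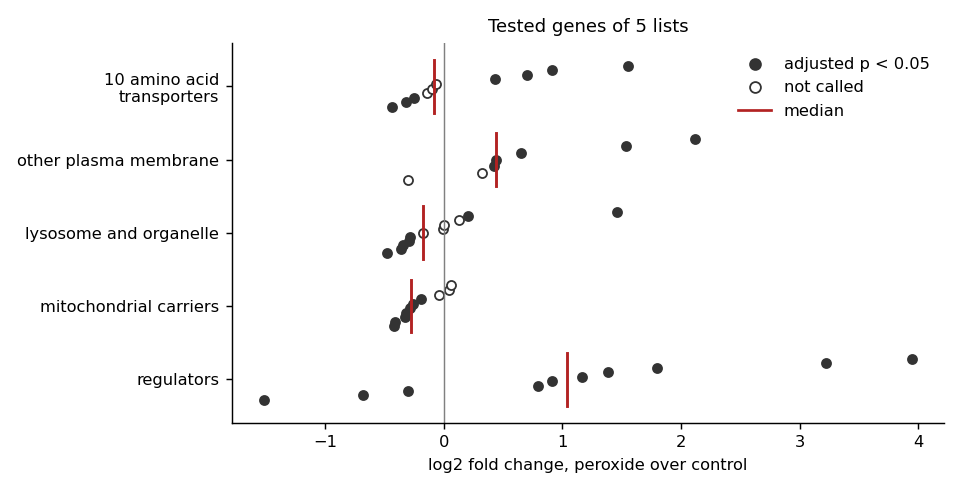
Log2 fold change, peroxide over control, of every tested gene of 5 lists, 1 point a gene; filled points were called, open points were not, and the red line is the median of a list. The 10 transporters spread to both sides of 0 around −0.08, the 10 mitochondrial carriers lie between −0.42 and 0.06 around −0.27, and the regulators centre on 1.04.

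The genes whose levels followed those of SLC38A2 most closely over the 16 libraries were SIRT1 (Pearson r of log2 CPM 0.986), SLC30A1 (0.979) and PMAIP1 (0.976), among 11092 genes that averaged at least 5 CPM. SIRT1 encodes a deacetylase, SLC30A1 the zinc exporter of the plasma membrane and PMAIP1 the BCL2 family member NOXA. For SLC7A6 they were MIR646HG (0.967), TTI1 (0.962) and SART3 (0.955). These values carry the treatment and the batch together and are given as a description.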

How the data were processed

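Per the labels' protocols, TRIzol was used for RNA and an Illumina TruSeq kit for libraries. The authors deposited raw read counts for each gene, with a table for every library. STAR 2.7.1a, HTSeq 0.6.1 and hg19 are named in the submitters' processing notes. The identifiers' versions fit later annotations, so the build is uncertain and no gene coordinates are printed. Symbols came from an identifier table that matched 60402 of 60662 identifiers. Rows that name no gene held 43.5% to 57.6% of counted reads and entered neither library sizes nor tests. Reads not aligned uniquely were not counted for any gene, so SLC7A5, which has near-copies in SLC7A5P1 and SLC7A5P2, is less certain; SLC7A5P1 had 311 reads in peroxide libraries and 256 in controls, against 70873 and 67962 for SLC7A5.

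Counts were filtered with edgeR's filterByExpr (edgeR 4.0.16, R 4.3.3), scaled with TMM factors and fitted with batch and group over all 16 libraries. Tests were quasi-likelihood tests with Benjamini-Hochberg adjustment over 14092 genes; standard errors (SE) equal the log2 fold change over the root of the F value. The interaction was fitted in the same way. Count ratios, with 0.5 added to each count, were compared by exact permutation tests (scipy 1.17.1). Alternatives were DESeq2 1.42.0, limma-voom (limma 3.58.1), other scalings, no filter, no batch term, a replicate block, each batch alone and each library left out; permuting labels within batches was added after seeing the data. The edgeR steps were tested on simulated counts. Libraries of a group and batch differed by more than sampling noise (chi-square per degree of freedom 2.95 to 17.9 over 24 pairs), so all were kept as replicates. Named genes were the 10 transporters, up to 4 genes of each other list, by p, that averaged at least 1 CPM, ATF4, DDIT3 and MYC, and, for the called transporter with the highest and the lowest fold change, the 3 genes most alike. The transporters, lists and pairs were chosen with earlier results of these data known. Marker genes, overlapping genes and EIF2AK4 are named outside this rule.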

Additional observations from a re-analysis of the deposited data

Results flagged for a closer look

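The response to peroxide differed between the batches by the interaction test for 5 of the 10 transporters. The difference of log2 fold changes, batch 1 minus batch 2, was 0.90 for SLC38A2, 0.83 for SLC3A2, 0.63 for SLC1A5, 0.61 for SLC7A5 and 0.58 for SLC1A4. Among the other genes named it was 3.19 for SLC7A11, 2.69 for DDIT3, 2.67 for ATF3 and 0.94 for ATF5.

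A single library stood apart from the rest of its group of 8 in 2 of the 54 sets of values examined, where chance would give about 1 in 20. SLC17A9 was highest in control 2, at 2.25 CPM with the next control at 1.501 CPM. MYC was lowest in peroxide 6, at 111 CPM with the next peroxide library at 158 CPM. None of the 10 transporters had such a library in a group of 8. These groups pool the batches, which did not overlap in controls for any of the 10, so a library apart within its batch can be missed. Within batch 1 controls, SLC38A2 was at 227 CPM in control 2 and at 336 to 366 CPM in the others. Within batch 2 peroxide libraries, SLC43A1 was at 47.4 CPM in peroxide 5 and at 72.4 to 79.2 CPM in the others. Sets within a batch were not examined by this rule.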

How the results depend on the processing

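The rises of SLC38A2 and SLC3A2 and the fall of SLC7A6 were called under all 26 alternatives, and the 5 count ratios under all 22. The number of transporters that fell was 1 without the batch term, 1 in batch 1 alone and 5 in batch 2 alone, against 3; leaving out each library in turn gave 2 to 3. SLC7A5 lost its call in batch 2 alone, SLC7A1 in batch 1 alone, SLC43A1 in batch 1 alone, and SLC7A1, SLC1A5, SLC43A1 and SLC6A6 without the batch term; SLC36A1, SLC25A15 and SFXN1 lost theirs in batch 2 alone. SLC1A4 gained a call without the filter (−0.19, adjusted p = 0.0356 by edgeR) and in batch 2 alone, SLC38A1 in batch 2 alone. Signs turned for SLC38A1 (0.0895) and SLC1A4 (0.16) in batch 1 alone and SLC38A5 (0.12) in batch 2 alone, none of them called. The interactions of SLC38A2, SLC3A2, SLC1A5 and SLC7A5 were called in all 23 alternatives and that of SLC1A4 in 12. Leaving out each library, 4 to 5 transporters had a called interaction with the higher log2 fold change in batch 1. Those with the lower log2 fold change in batch 1 numbered 0 to 1 (SLC38A5 without peroxide 2). Uncalled interactions turned sign for SLC7A6 (−0.15 to 0.0088 on leaving out each library; 0.0088 without control 2), SLC16A10 (0.0417 without peroxide 2, 0.0161 without peroxide 7, 0.0227 without peroxide 5 and control 1; −0.18 to 0.0417 on leaving out each library) and SFXN2 (0.0285 without peroxide 5 and control 1). Among other plasma membrane transporters 10 rose without the filter, and 1 fell under limma-voom, without the filter and in batch 2 alone (0 to 1 on leaving out each library). Of the organelle transporters 1 rose with total counts, without the filter and in batch 1 alone (1 to 2 on leaving out each library), and 3 fell in batch 1 alone. Of the mitochondrial carriers 1 rose without the filter and in batch 2 alone, where 4 fell. Some of these settings hold fewer libraries or another number of genes, and the causes of the shifts were not tested.

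With replicate number as a replicate block the counts stayed at 4 rises, 3 falls and 5 interactions; SFXN1 gained an interaction call (adjusted p = 0.0434 by edgeR). Deviations from group and batch means of libraries with the same number correlated at −0.22 to 0.31, positive for some numbers and negative for others, so a pairing beyond the batch was not shown for every number.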
